A study of Mus musculus with 4 samples.

Results

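Collagens are the most abundant structural proteins of the extracellular matrix, and this account follows their genes through the cells of mouse skeletal muscle. The members were all genes whose symbol reads Col, a number, the letter a and a number, which gave 44 of the 32285 genes in the count matrices. By the structure of their proteins they comprised 11 fibrillar chains, 9 fibril-associated chains (FACIT), 6 network chains of basement membranes, 6 beaded-filament chains of type VI, 4 transmembrane chains, 3 short-chain members, 2 multiplexins, 1 anchoring-fibril chain and 2 others. Each of the 44 had at least 1 UMI, that is 1 counted RNA molecule, and 42 had 100 or more over the 4 libraries. The exceptions were Col6a4, with 81 UMIs, and Col10a1, the type X chain of hypertrophic cartilage, with 15.

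Cells came from the tibialis anterior and gastrocnemius muscles of 2-month-old male S100GFP-tg mice, in which the S100B promoter drives green fluorescent protein (GFP) in Schwann cells and in some other cells. One group of mice was otherwise wild type (WT, genotype S100GFPtg) and the other lacked superoxide dismutase 1 (Sod1KO, genotype S100GFPtg Sod1-/-), and both carried the transgene. For each genotype the muscles of 4 mice were pooled, and live (propidium iodide-negative) cells were sorted into GFP+ and GFP- fractions. This gave 4 droplet libraries, WT GFP+, Sod1KO GFP+, WT GFP- and Sod1KO GFP-, 1 per group. With 1 library in a group there was no replicate and no test was possible. Intervals are exact 95% intervals and cover counting error only, and a difference between genotypes below is a difference between those 2 libraries.

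A collagen molecule is a triple helix of 3 chains, which may be identical or the products of different genes. Fibrillar collagens such as types I and III form the tensile fibres of tendon and connective tissue, FACIT collagens coat those fibres, and type IV collagens build the sheet-like basement membrane that surrounds every muscle fibre, blood vessel wall and Schwann cell. In nerve, Schwann cells and the fibroblasts around them share the making of this matrix. Terminal Schwann cells (tSCs) cap the neuromuscular junction, myelinating Schwann cells (mSCs) wrap the motor axon, and perineurial cells form the sheath of the nerve.

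The libraries held 5498, 7267, 2052 and 6598 cell barcodes for WT GFP+, Sod1KO GFP+, WT GFP- and Sod1KO GFP-, with 81320146, 105954116, 21959719 and 101410418 UMIs in all. After filters on genes, mitochondrial share and doublets 4557, 5925, 1638 and 5143 cells remained. The WT GFP- library stood apart: its cells had a median of 8019.5 UMIs against 12288 to 14658 in the other libraries, and 33.76% of its cells lay in clusters not described here, against 6.452% to 11.94%. Any pair of libraries shared 1 to 13 barcodes. Sod1 itself was at 89.69 counts per 1000000 UMIs (CPM) in WT GFP+ and 95.87 in Sod1KO GFP+, and at 122.7 and 108.8 in the GFP- pair. The sources used here do not say which stretch of the gene is deleted, so this 3′ count does not check the genotype, and Sod1KO below means the library labelled Sod1KO.

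Cells were clustered with all collagen genes left out, so that collagen levels did not shape the groups, and clusters were named only from fixed lists of other marker genes. Cells named in this way are called tSC-like, mSC-like, perineurial-like, tenocyte-like, mesenchymal-like, smooth muscle-like, pericyte-like, endothelial-like, lymphatic endothelial-like, macrophage-like and satellite-like. Of 37 clusters, 7 did not meet the rules for a name and are given by number with their leading genes, and 8 are not described. All markers of a named class were above 20 CPM in each library compared, except in tSC-like cells, where 6 of 8 in WT and 7 of 8 in Sod1KO were above it and none was at 0. A comparison of genotypes needed at least 50 cells in both libraries. Macrophage-like cells were kept out of it and served as a measure of background. It covered 11 classes or clusters in the GFP+ fraction and 4 in the GFP- fraction.

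Collagen transcripts took 3.479% of all UMIs in WT GFP+ and 4.083% in Sod1KO GFP+, and 0.9631% and 1.768% in WT GFP- and Sod1KO GFP-. Most of this came from tendon cells, except in WT GFP-, which held only 12 tenocyte-like cells. In tenocyte-like cells, the fibroblasts of tendon, collagens made up 13.4% of UMIs in WT GFP+, 12.4% in Sod1KO GFP+ and 11.4% in Sod1KO GFP-. Cluster 6, led by Mlana, Inmt and Gdf10, had 5 of 7 mesenchymal markers but a median of only 3286 UMIs per cell, and stood at 4.94% and 4.92% in WT and Sod1KO GFP+. Cluster 16, which held 8 of 8 tenocyte markers but was led by Shisal2b, Ptx4 and C1qtnf4, was at 3.60% and 3.39%. Mesenchymal-like cells, the fibroblasts between muscle fibres, were at 2.95% and 2.63% in the GFP+ pair. Cluster 12, described further below, was at 2.42% and 2.37%. All of these are fibroblastic cells by their markers, and all lay well above the glial and vascular groups.

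Glial and vascular cells gave less than 1% of their UMIs to collagens. In the GFP+ libraries the share was 0.560% in WT and 0.631% in Sod1KO for tSC-like cells, 0.326% and 0.381% for mSC-like cells, 0.289% and 0.363% for smooth muscle-like cells and 0.280% and 0.347% for endothelial-like cells. Each of these was somewhat higher in Sod1KO. Cluster 7, which carried 8 of 8 mSC markers together with 7 of 7 perineurial markers, went from 0.532% to 0.910%. The macrophage-like cells, which should make little collagen, were at 0.440% in WT GFP+, 0.0647% in Sod1KO GFP+ and 0.0168% in Sod1KO GFP-. The WT value came from 1 cell, which held 5033 of the 5205 Col1a1 UMIs of that class, and without it the WT macrophage-like cells had 341.5 CPM of all collagens together.

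**Figure D1:**
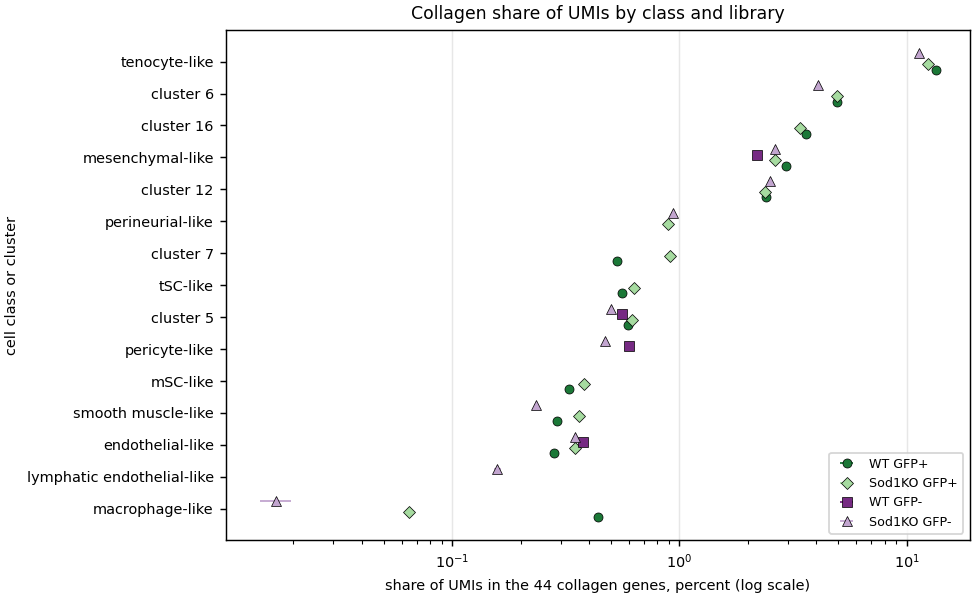
Share of UMIs that fell on the 44 collagen genes (percent, log axis) for each cell class or numbered cluster, with 1 point per library. Tenocyte-like cells sit at 11.4% to 13.4%, nerve and vascular classes lie below 1%, and the high macrophage-like point of WT GFP+ rests on 1 cell.

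The classes also differed in which kinds of collagen they used. In tenocyte-like cells 96.9% of collagen UMIs in WT and 96.6% in Sod1KO were fibrillar, and 2 genes held 90% of them. In endothelial-like cells, which line blood vessels, 78.2% and 79.1% of collagen UMIs of the GFP+ libraries were basement membrane chains, and in the GFP- libraries 87.9% and 86.8%. Smooth muscle-like cells had 49.9% and 38.7% in basement membrane chains. Lymphatic endothelial-like cells of Sod1KO GFP- had 29.4% of their collagen UMIs in transmembrane chains. Glial cells used a broader set than tenocyte-like and endothelial-like cells. To reach 90%, mSC-like cells needed 13 genes in WT and 14 in Sod1KO, tSC-like cells 11 and 13, and endothelial-like cells of GFP+ 5 in both. Other classes were close to the glial ones, with 10 and 11 in GFP+ smooth muscle-like cells and 12 in Sod1KO perineurial-like cells. Macrophage-like cells of Sod1KO GFP+, the background, needed 11.

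For each library it was asked whether a single class or cluster held more than 50% of the UMIs of a gene, and 31 of the 44 members met this in at least 1 library. The share of all genes that meet this is not given here, so the count is not read as a trait of collagen genes. Tenocyte-like cells held 11 of them, mesenchymal-like cells 6 and cluster 16 held 4. A library was counted here with its cells left after filters, not with all its barcodes. These shares thus also depend on how many cells of each class were sorted. Levels of different genes are set side by side below as UMIs from 3′ ends, which count 1 per molecule whatever its length but depend on how well each 3′ end is captured.

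Among the fibrillar chains, Col1a1 and Col1a2, the chains of type I collagen, were the most abundant members. In tenocyte-like cells Col1a2 was at 66756 CPM (66627 to 66885) in WT GFP+, 62176 in Sod1KO GFP+ and 55911 in Sod1KO GFP-. Col1a1 was at 60513, 54584 and 50862 CPM in the same libraries. Cluster 16 had 13725 and 13449 CPM of Col1a2 and 10721 and 9762 of Col1a1 in WT and Sod1KO GFP+. Type I chains thus led in both groups of tendon-like cells. Col3a1, the type III chain of pliable tissue, instead led in mesenchymal-like cells, with 9666 and 8669 CPM, and in cluster 12, with 5121 and 6274. It was highest in cluster 6, with 13194 and 14062 CPM beside 16272 and 15306 of Col1a2.

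Of the less abundant fibrillar chains, Col11a1, Col11a2 and Col2a1 were highest in tendon-like cells, and Col24a1 and Col27a1 in Schwann cells. Col11a1, a chain that starts and limits fibrils in cartilage and tendon, was at 1061 and 1118 CPM in tenocyte-like cells and at 1552 and 1388 in cluster 16 of WT and Sod1KO GFP+. Its partner chain Col11a2 was at 438 and 532 CPM in tenocyte-like cells, and Col2a1, the main collagen of cartilage, at 70.3 and 103. Col24a1 was an exception among fibrillar chains, since it was highest in Schwann cells: mSC-like cells had 263 CPM (251 to 275) in WT and 328 (311 to 345) in Sod1KO, followed by cluster 16 with 191 and 228. Col27a1 was highest in tSC-like cells, with 358 CPM (343 to 373) in WT and 371 (359 to 383) in Sod1KO.

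The clearest single-class members were FACIT chains. Col20a1 lies at chr2:180983323-181017545 (GRCm38.p6) and was at 1692 CPM (1660 to 1726) in WT tSC-like cells and 798 (781 to 816) in Sod1KO. This was 94.4% and 81.7% of its UMIs in the cells of those libraries left after filters. The next class, cluster 7 of Sod1KO GFP+, was at 37.3 CPM, 45.4-fold below the highest value. Col22a1, known from tissue junctions such as the junction of muscle and tendon, lies at chr15:71795795-72150979. It was at 1722 CPM (1683 to 1763) in WT and 1789 (1759 to 1819) in Sod1KO in cluster 16. That cluster held 96.7% and 98.6% of its UMIs in cells left after filters. The higher level was 146-fold above the next class, the WT tenocyte-like cells at 12.2. Within the tenocyte-like cells Col22a1 lay mainly in cluster 30, at 735 CPM in WT and 236 in Sod1KO. Col19a1, at chr1:24257683-24587922, marked satellite-like cells, the muscle stem cells, with 271 CPM (229 to 318) in 38 cells of WT GFP+, 321 (279 to 368) in Sod1KO GFP+ and 225 (186 to 270) in Sod1KO GFP-. In all 3 libraries this was far above other classes, the highest being 49.1-fold over the next.

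Other FACIT chains were shared more widely. Col12a1, a coat protein of tendon fibrils, was at 875 and 859 CPM in tenocyte-like cells of WT and Sod1KO GFP+ and at 911 in cluster 16 of WT. Col14a1 was highest in mesenchymal-like cells, at 711 and 683 CPM, and Col16a1 in tenocyte-like cells, at 207 and 211. Type IX collagen, best known from cartilage, had a different highest group for each of its 3 chains. Col9a1 was highest in mSC-like cells with 43.8 and 42.3 CPM, Col9a3 in tSC-like cells with 41.3 and 40.6, and Col9a2 in cluster 12 with 164 and 67.0. The groups overlapped, since Col9a3 was also at 31.2 CPM in WT mSC-like cells. Cluster 12 was led by Smim41, Saa1, Fetub and Cxcl14 and had 3 of 5 endoneurial fibroblast markers and 4 of 7 mesenchymal markers.

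Of the basement membrane chains, Col4a1 and Col4a2, which form the type IV network of most tissues, led in endothelial-like cells. There Col4a1 was at 1356 CPM in WT GFP+ and 1753 in Sod1KO GFP+, and Col4a2 at 816 and 987. Cluster 5, which carried 6 of 6 pericyte and 7 of 7 endothelial markers, reached 2555 CPM of Col4a1. Both chains were also among the 5 highest collagens of smooth muscle-like cells (Col4a1 719 and 733 CPM, Col4a2 538 and 515) and of WT tSC-like cells (Col4a1 490, Col4a2 389). In Sod1KO tSC-like cells (Col4a1 522 CPM, Col4a2 422) and in mSC-like cells (Col4a1 389 and 329 CPM) Col4a1 alone was among them. Col4a6, a chain of smooth muscle basement membranes, was highest in smooth muscle-like cells at 40.2 and 28.3 CPM, and at 31.2 in Sod1KO GFP-. Each of these cell types is surrounded by or rests on a basement membrane.

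Several members that are scarce in muscle as a whole stood out in one cell group. Col28a1, a collagen known in peripheral nerve, was at 291 CPM (278 to 304) in WT and 467 (447 to 487) in Sod1KO in mSC-like cells. These held 62.1% and 54.1% of its UMIs in the GFP+ cells left after filters. In cluster 32, one of the clusters that make up the mSC-like cells, it was at 665 and 658 CPM. Col23a1, a transmembrane collagen, was at 459 CPM in lymphatic endothelial-like cells of Sod1KO GFP- and at 161 in perineurial-like cells of Sod1KO GFP+. Col13a1, a transmembrane collagen known at the neuromuscular junction, was highest in cluster 16 at 161 CPM in both WT and Sod1KO but was not particular to it. Cluster 22, led by Gm5, Esm1 and Pacsin1 and with 4 of 6 pericyte and 5 of 7 endothelial markers, was at 159 CPM in Sod1KO GFP-. Col26a1 was at 188 and 194 CPM in cluster 16. Col15a1, a multiplexin of the zone just outside basement membranes, was highest in cluster 12, at 2179 CPM in WT GFP+, 1411 in Sod1KO GFP+ and 1457 in Sod1KO GFP-.

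**Figure D2:**
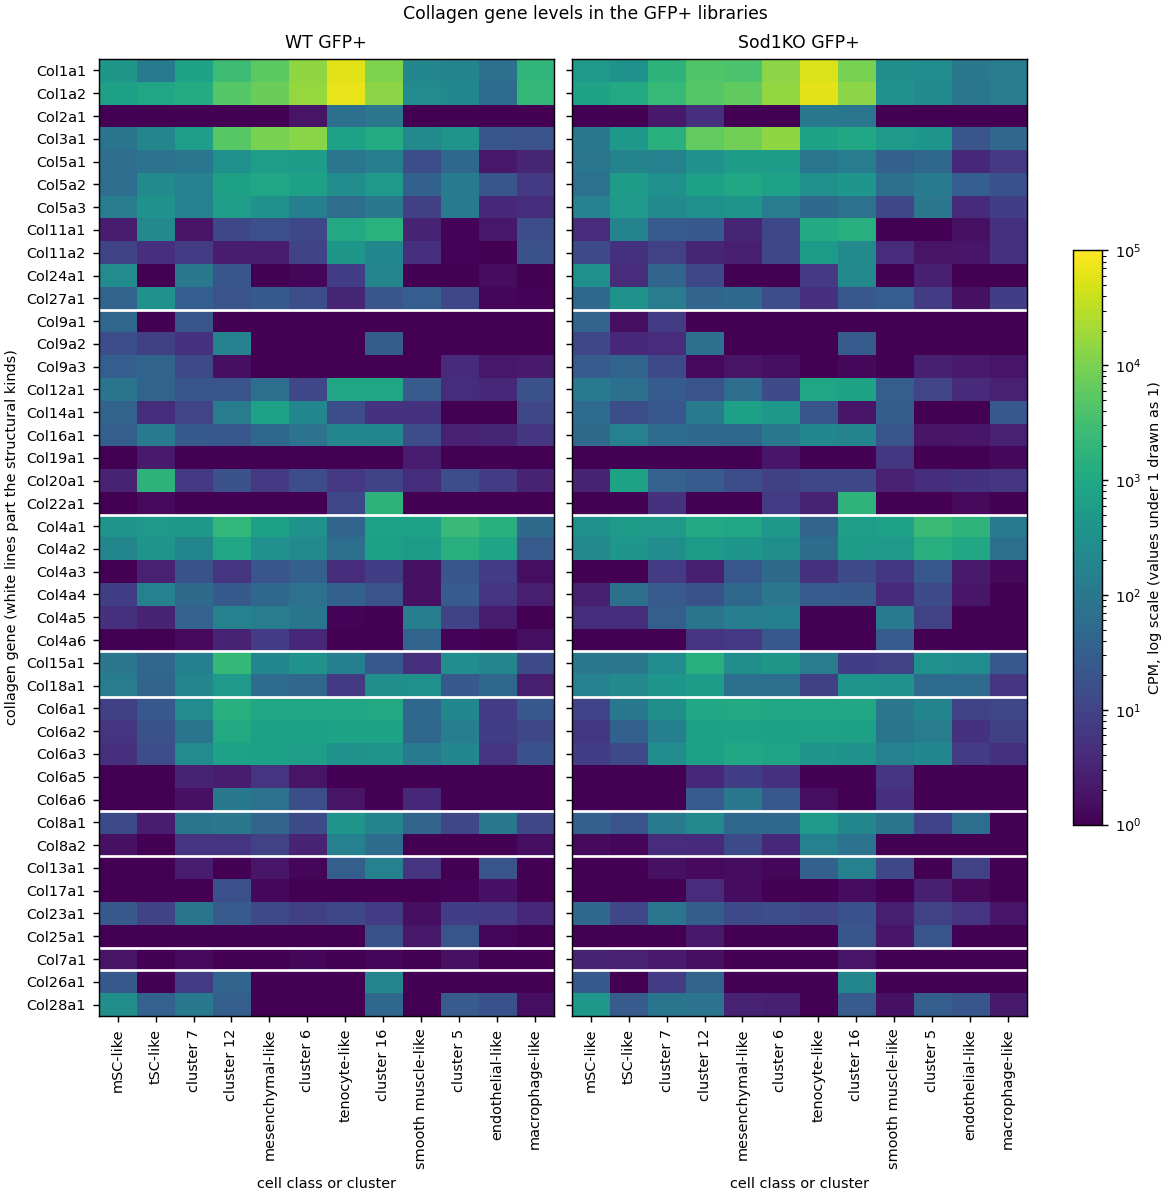
Level of the 42 collagen genes with at least 100 UMIs in 12 classes or clusters of the GFP+ fraction, WT and Sod1KO side by side, as CPM on a log colour scale with values under 1 drawn as 1. Col20a1 is bright in tSC-like cells (1692 and 798 CPM), Col22a1 in cluster 16 (1722 and 1789) and Col28a1 in mSC-like cells (291 and 467), while Col1a1 and Col1a2 are highest in tenocyte-like cells.

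Chains that assemble together were compared as ratios within a cell group, since the capture of each 3′ end then cancels between groups. The type I heterotrimer holds more α1 than α2 chain, and Col1a2 to Col1a1 UMIs stood at 1.10 and 1.14 in tenocyte-like cells of WT and Sod1KO GFP+, 1.38 and 1.58 in mesenchymal-like cells, and 1.61 and 1.60 in mSC-like cells. In tSC-like cells the ratio was 8.12 (7.49 to 8.81) in WT and 3.01 (2.90 to 3.13) in Sod1KO. It lay mostly in cluster 11, one of 3 clusters in that class, with 11.8 (10.7 to 13) and 6.20 (5.58 to 6.91), against 2.31 and 2.67 in cluster 9. The Col1a1 level behind these ratios was low: 77.0 and 130 CPM in cluster 11, beside 68.0 and 110.5 CPM in macrophage-like cells without their top cell, whereas Col1a2 in cluster 11 was at 906 and 806 CPM against 77.1 and 119.6 in macrophage-like cells. So the Col1a1 of cluster 11 was near the level of free RNA, and the Col1a2 was well above it.

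Col4a3 and Col4a4, chains of specialised basement membranes, lie head to head on chromosome 1, with RefSeq starts 72 bases apart. The ratio of Col4a4 to Col4a3 UMIs was 1.00 and 0.60 in smooth muscle-like cells of WT and Sod1KO GFP+, 2.34 and 2.07 in mesenchymal-like cells and 7.90 and 5.39 in tenocyte-like cells. In tSC-like cells it was 53.0 (32.9 to 91.4) in WT and 183 (71.1 to 673) in Sod1KO, on 17 and 4 Col4a3 UMIs. The smooth muscle-like ratios rest on 23 UMIs of each gene in WT, and on 33 of Col4a4 and 55 of Col4a3 in Sod1KO. No background level of Col4a3 is set beside these low counts, so the smooth muscle-like ratios are not read further. Although their starts adjoin, these genes were counted in different proportions in mesenchymal-like, tenocyte-like and tSC-like cells. By contrast Col4a1 and Col4a2, which also lie head to head, kept a ratio between 0.674 (tenocyte-like, Sod1KO) and 2.35 (cluster 7, WT) in all GFP+ groups.

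Other partners were unequal too. The ratio of Col11a1 to Col11a2 was 47.4 and 32.7 in tSC-like cells of WT and Sod1KO, on 28 and 55 Col11a2 UMIs, and 2.42 and 2.10 in tenocyte-like cells. Macrophage-like cells of Sod1KO GFP+ held 16 Col11a2 UMIs of 3084593 in all, against 55 of 10384969 in Sod1KO tSC-like cells. Col11a2 in Sod1KO tSC-like cells was thus near background, and the size of that ratio is not read. In mSC-like cells Col11a1 had only 17 and 19 UMIs, or 2.38 and 4.3 CPM, near the 1.19 and 4.88 CPM of macrophage-like cells without their top cell, so no ratio is read there. For Col5a1 and Col5a2, the chains of type V collagen that nucleate type I fibrils, the ratio was 0.304 and 0.315 in tSC-like cells and 1.00 and 1.21 in mSC-like cells.

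**Figure D3:**
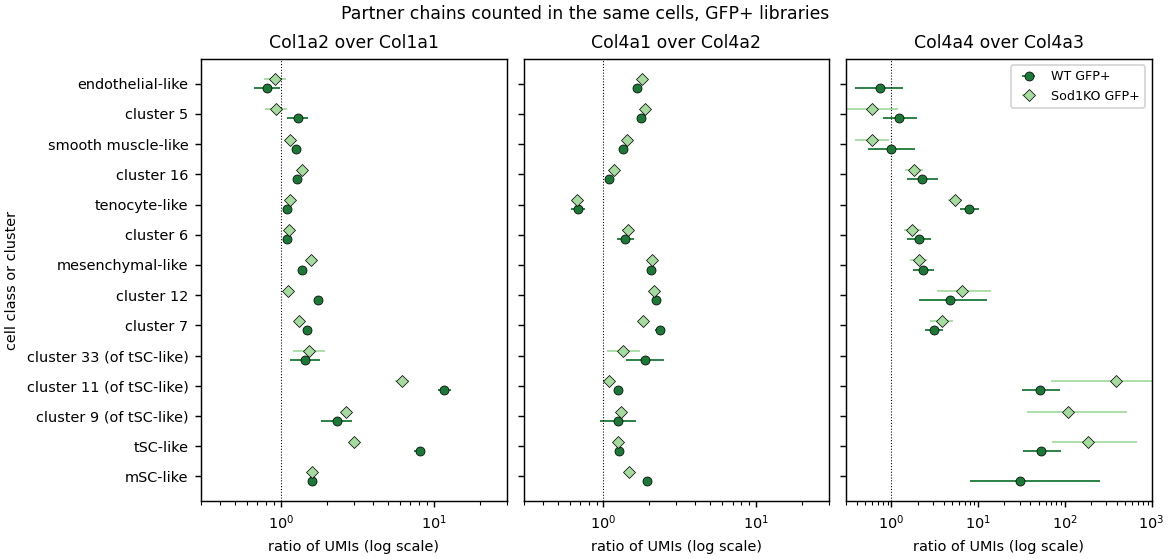
Ratio of UMIs of Col1a2 to Col1a1, Col4a1 to Col4a2 and Col4a4 to Col4a3 in each class or cluster of the GFP+ fraction (log axis), with exact 95% intervals from counting error, WT and Sod1KO. The tSC-like cells and their cluster 11 lie highest for Col1a2 to Col1a1 (8.12 and 11.8 in WT) and for Col4a4 to Col4a3 (53.0 and 51.4 in WT), while Col4a1 to Col4a2 stays between 0.674 and 2.35, and the axis stops at 1000.

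Promoter windows are shown for 4 members: Col24a1, highest in mSC-like cells; Col1a2, the most abundant member, which never passed a 2-fold difference between genotypes; and Col3a1 and Col8a1, which were among those past it most often. Each is the 250 bases before the RefSeq start in GRCm38.p6, 5′ to 3′ on the gene's strand, at chr3:145292222-145292471 (plus strand) for Col24a1, chr6:4505368-4505617 (plus) for Col1a2, chr1:45311288-45311537 (plus) for Col3a1 and chr16:57754738-57754987 (minus) for Col8a1. Capitals mark matches on either strand to ACAAAG or ACAATG (the core bound by SOX factors), TATAAA (the TATA box) or GGGCGG (the GC box).
Col24a1: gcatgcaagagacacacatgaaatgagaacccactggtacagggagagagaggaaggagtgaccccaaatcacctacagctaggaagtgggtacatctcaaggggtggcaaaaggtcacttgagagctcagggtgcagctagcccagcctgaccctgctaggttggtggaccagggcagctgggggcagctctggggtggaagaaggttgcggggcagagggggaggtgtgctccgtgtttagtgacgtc
Col1a2: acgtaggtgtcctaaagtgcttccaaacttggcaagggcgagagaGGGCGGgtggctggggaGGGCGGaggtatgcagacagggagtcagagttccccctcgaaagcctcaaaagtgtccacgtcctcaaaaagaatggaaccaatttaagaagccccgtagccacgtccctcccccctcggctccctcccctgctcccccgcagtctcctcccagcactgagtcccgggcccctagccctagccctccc
Col3a1: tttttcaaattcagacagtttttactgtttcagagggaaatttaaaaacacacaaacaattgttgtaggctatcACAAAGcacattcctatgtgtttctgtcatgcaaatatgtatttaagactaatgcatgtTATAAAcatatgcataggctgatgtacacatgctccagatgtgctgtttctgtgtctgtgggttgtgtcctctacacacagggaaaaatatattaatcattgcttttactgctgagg
Col8a1: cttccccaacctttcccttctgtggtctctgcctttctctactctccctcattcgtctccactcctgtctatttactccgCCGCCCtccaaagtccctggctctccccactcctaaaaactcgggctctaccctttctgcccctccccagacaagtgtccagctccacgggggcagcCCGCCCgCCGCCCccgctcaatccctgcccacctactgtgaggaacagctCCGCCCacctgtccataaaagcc

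The Col24a1 window held none of these letters. That of Col1a2 held GGGCGG starting at -205 and -188 from the start. That of Col3a1, at 35.2% G and C the poorest of these, held ACAAAG at -176 and TATAAA at -117. That of Col8a1 held GGGCGG on the opposite strand, read here as CCGCCC, at -170, -73, -66 and -23. Windows were at hand for 35 of the 44 members: 21 (60%) held GGGCGG against 32.7% of all 32851 windows, 5 (14.3%) held TATAAA against 12.4%, 4 (11.4%) held ACAAAG against 16.5% and 1 held ACAATG against 10.7%. These are descriptions of letters and say nothing of binding.

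Sod1KO was then compared with WT within each class and fraction. A gene was compared where its 2 libraries held at least 100 UMIs together, and it counted as past the threshold at a 2-fold difference or more. Over the 15 comparisons there were 329 such pairs of a member and a comparison, of which 47 were at least 2-fold higher and 12 at least 2-fold lower in Sod1KO. The share of all genes past 2-fold ran from 0.865% (mSC-like cells, GFP+) to 13.7% (mesenchymal-like cells, GFP-). In most comparisons more of all genes were higher than lower too. Of 38 members compared at least once, 26 passed somewhere and 12 nowhere. Such counts over several comparisons, here and next, have no share of all genes beside them. Col8a1, a short-chain collagen of vessels and fibroblasts, was higher in 5 of 13 comparisons, Col14a1 in 5 of 9, Col3a1 in 4 of 15 and Col18a1 in 4 of 14. Col1a2, Col4a1 and Col4a2 were each compared 15 times and passed in none, with log2 ratios of Sod1KO over WT from -0.31 to 0.87, -0.82 to 0.41 and -0.76 to 0.48.

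**Figure D4:**
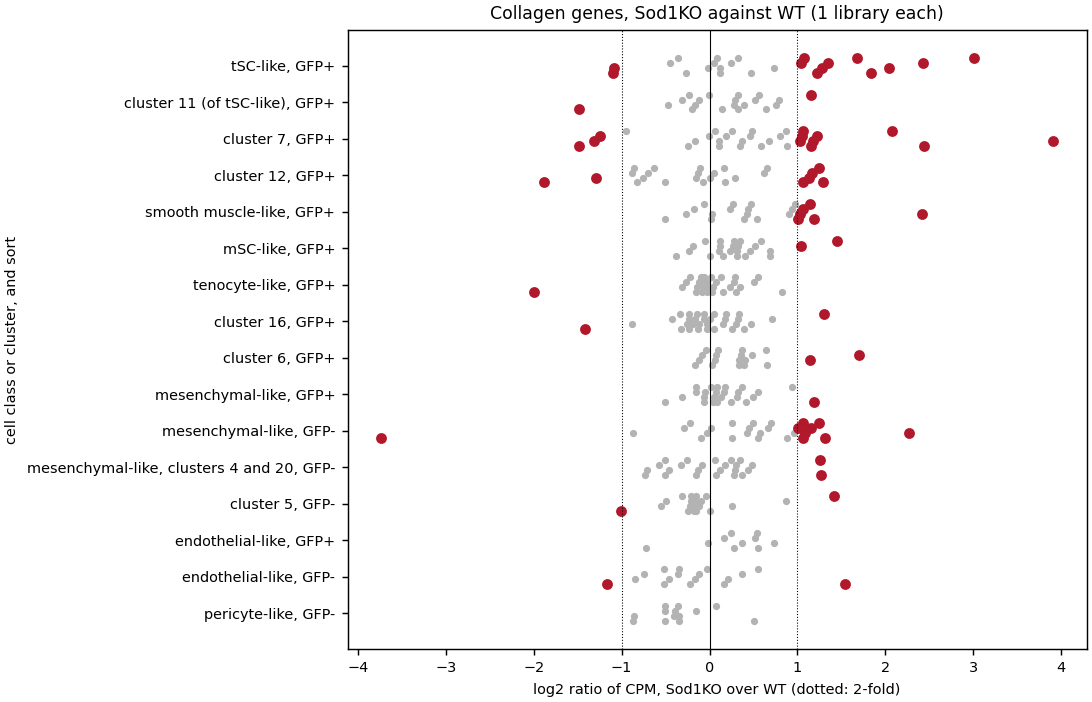
log2 ratio of CPM, Sod1KO over WT, for each collagen gene compared, by class or cluster and fraction, with 1 point per gene, red where past 2-fold, and dotted lines at 2-fold. Points past 2-fold lie mostly on the higher side and include 12 of 24 members in tSC-like cells and 12 of 30 in cluster 7. The genotype comparisons counted in the text gave 47 higher and 12 lower. That count leaves out subsets of a class, such as cluster 11 alone, and need not equal the number of points drawn.

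In tSC-like cells 12 members passed the threshold, as many as in cluster 7. Of 24 compared, 10 were at least 2-fold higher and 2 at least 2-fold lower in Sod1KO, beside 7.12% of all genes past it in either direction in that comparison. The median log2 ratio was 0.40 over the members and -0.03 over all genes. The higher ones were led by Col8a1, at 2.52 CPM in WT and 20.2 in Sod1KO (log2 ratio 3.01, 2.25 to 3.87), of which 61 of 210 Sod1KO UMIs lay in 1 cell. Col18a1, whose protein yields the fragment endostatin, went from 42.4 CPM (37.4 to 48.0) to 229 (220 to 238), a log2 ratio of 2.43 (2.24 to 2.62). Col6a1, a chain of the microfibrils around cells, went from 24.0 to 99.1 CPM (2.05), and Col14a1 from 4.53 to 16.2 (1.84).

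Fibrillar chains made up the next group in tSC-like cells. Col1a1 was at 112 CPM (103 to 121) in WT and 357 (345 to 369) in Sod1KO, a log2 ratio of 1.68 (1.56 to 1.80). Col3a1 was at 184 and 469 CPM (1.35), Col5a1 at 71.8 and 174 (1.28) and Col5a2 at 236 and 552 (1.22). Fibrillar chains held 43.8% of the collagen UMIs in WT and 58.3% in Sod1KO, and FACIT chains 34.1% and 17.1%. Col15a1 (44.8 and 94.5 CPM, 1.08) and Col6a2 (17.1 and 35.1, 1.04) completed the higher ones. The lower ones were Col4a4, at 151 and 70.4 CPM (-1.10), and Col20a1, at 1692 and 798 CPM (-1.08, -1.13 to -1.04). The leading collagen of WT tSC-like cells, Col20a1, thus came second after Col1a2 in Sod1KO.

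The tSC-like cells of the libraries lay in different clusters, and most of these ratios moved with that. Cluster 11 held 311 of the 369 WT cells and 222 of the 797 Sod1KO cells, cluster 9 held 31 and 546, and cluster 33 held 27 and 29. Cluster 9 was thus almost wholly from the Sod1KO library, and a cell state and a library cannot be told apart there. Within cluster 11 alone, 1 of 20 members was higher and 1 lower, beside 1.31% of all genes. Col20a1 was at 1824 and 1684 CPM there, Col3a1 at 57.5 and 69.7, Col18a1 at 25 and 43.3 and Col4a4 at 159 and 128. The members past the threshold were Col6a1, at 18.6 and 41.4 CPM (1.15), and Col28a1, at 30.1 and 10.7 (-1.49). Within cluster 9, of 31 WT cells, Col20a1 was at 235 CPM in WT and 436 in Sod1KO, Col18a1 at 199 and 304, Col3a1 at 820 and 584 and Col1a1 at 422 and 450. Hence the level of a member differed more between these clusters than between genotypes within either of them for Col20a1, Col3a1, Col18a1 and Col1a1.

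**Figure D5:**
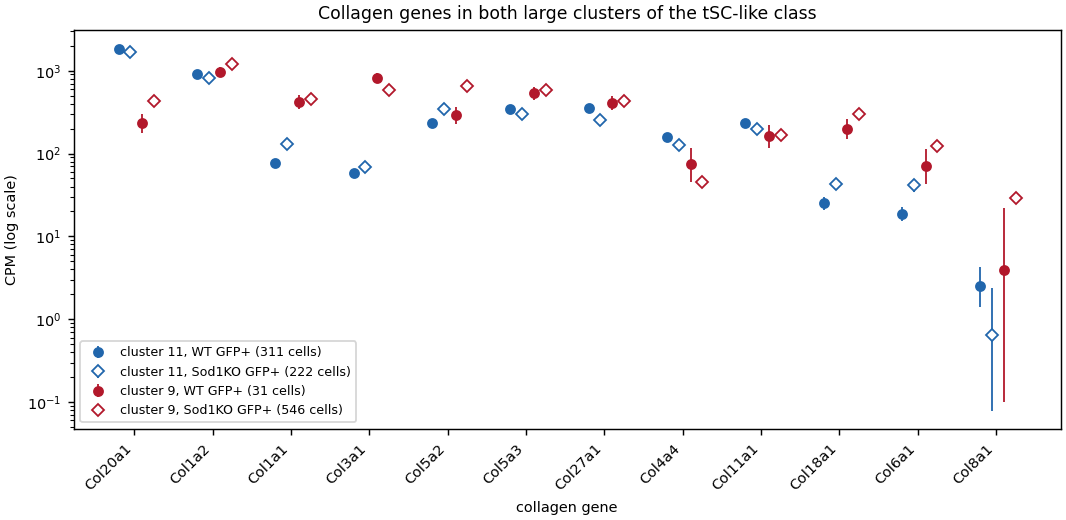
CPM of 12 collagen genes (log axis) in clusters 11 and 9 of the tSC-like cells, WT and Sod1KO, with exact 95% intervals from counting error. Col20a1 lies at 1824 and 1684 in cluster 11 against 235 and 436 in cluster 9, and Col1a1, Col3a1 and Col18a1 lie higher in cluster 9.

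The same was seen in the share of cells with a UMI, counted after thinning each cell to 1000 UMIs. For Col20a1 it was 70.2% (65.2 to 74.8) of WT and 41.0% (37.6 to 44.5) of Sod1KO tSC-like cells, 91.1% and 73.9% without thinning, at median depths of 12610 and 10054 UMIs. In cluster 11 the thinned share of Col20a1 was 80.4% and 79.7%, and in cluster 9 12.9% and 27.1%. Macrophage-like cells, at median depths of 17568 and 13729 UMIs, gave the background: Col20a1 was in 0 of 131 WT cells, which allows a share of up to 2.29%, and in 0.485% of Sod1KO cells. Thus Col20a1 was well above background in both clusters and genotypes.

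Not every member cleared that background. For Col1a1 the thinned share was 11.9% and 24.6% in tSC-like cells of WT and Sod1KO, 12.2% and 11.3% in cluster 11, and 10.7% and 12.6% in macrophage-like cells. Col1a1 in the WT tSC-like cells and in cluster 11 was therefore close to background. Col1a2, at 57.7% and 55.0% against 9.92% and 13.1% in macrophage-like cells, was not. Col3a1 was in 12.2% and 28.4% of tSC-like cells, in 3.22% and 6.31% of cluster 11 and in 3.05% and 5.83% of macrophage-like cells. Col18a1 was in 3.25% and 18.3% of tSC-like cells and in 0 of 131 and 0 of 206 macrophage-like cells, which allows shares of up to 2.29% and 1.46%. Col4a4 was in 14.4% and 8.16% of tSC-like cells and in 0.763% and 0 of 206 macrophage-like cells.

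Markers of other cells also moved with the tSC-like comparison. The summed level of the macrophage markers was 4768 CPM in WT and 440.5 in Sod1KO tSC-like cells, though 4 of 7 were higher in Sod1KO. That of the mesenchymal markers was 592 and 321, with 3 of 7 higher in Sod1KO. These lists thus did not move as a whole. The endothelial markers did, from 148 to 48.6 CPM with 0 of 7 higher in Sod1KO. In cluster 11 alone they went from 159 to 90.9 CPM, again with 0 of 7 higher. The tenocyte markers went the other way, from 27 to 49 CPM with 8 of 8 higher in Sod1KO, and so did the smooth muscle markers, from 75.2 to 105 with 4 of 5 higher. No tenocyte or smooth muscle marker was at 0 in either library. The part of any of these in the collagen differences was not tested.

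Cluster 7, with mSC and perineurial markers together, was led by Lgals7, Tenm2 and Cldn1. Of 30 members compared, 9 were at least 2-fold higher and 3 lower in Sod1KO, beside 5.96% of all genes. The higher ones were Col11a1, at 1.84 and 27.7 CPM in WT and Sod1KO (log2 ratio 3.91), Col20a1 at 6.87 and 37.3 (2.44), Col27a1 at 31 and 131 (2.07), Col3a1 at 642 and 1493 (1.22), Col18a1 at 184 and 416 (1.17), Col16a1, Col1a1 at 811 and 1696 (1.06), Col14a1 and Col5a2. Of these, Col20a1 and Col27a1 had their highest levels in tSC-like cells. The lower ones were Col9a1 at 20.3 and 7.25 CPM (-1.48), Col24a1 at 105 and 42.2 (-1.32) and Col4a3 at 17.3 and 7.25 (-1.25), of which Col9a1 and Col24a1 were highest in mSC-like cells. The summed mSC markers were at 16850 CPM in WT and 8380 in Sod1KO, the perineurial ones at 2190 and 1504 and the tSC ones at 253 and 455. Their part in these ratios was not tested.

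The mSC-like cells, 1079 in WT and 659 in Sod1KO, differed little. Of 24 members compared, 2 were at least 2-fold higher in Sod1KO and none lower, beside 0.865% of all genes. These were Col8a1, at 13.2 CPM (10.6 to 16.1) in WT and 36 (30.6 to 42.0) in Sod1KO (log2 ratio 1.45, 1.07 to 1.84), and Col23a1, at 25.5 and 52.2 (1.04). With a stricter filter on cells neither passed the threshold. Col28a1, a collagen of nerve, was at 291 and 467 CPM, under the threshold, and with each cell thinned to 1000 UMIs was in 22.5% and 32.8% of the cells, against 0.763% of WT and 0 of 206 Sod1KO macrophage-like cells. Its level in the mSC-like cells was thus well above background in both libraries.

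In smooth muscle-like cells (612 WT and 471 Sod1KO) 6 of 22 members were at least 2-fold higher in Sod1KO and none lower, beside 1.68% of all genes, with a median log2 ratio of 0.45 over members and -0.01 over all genes. Col14a1 was at 5.49 and 29.4 CPM in WT and Sod1KO (2.42), Col5a1 at 15.7 and 35.9 (1.19), Col13a1 at 5.56 and 12.3 (1.14), Col3a1 at 235 and 492 (1.06), Col8a1 at 42.8 and 87.2 (1.03) and Col6a1 at 47.5 and 95.3 (1.00). Of these, Col14a1 and Col5a1 were highest in mesenchymal-like cells, Col3a1 in cluster 6, Col6a1 in cluster 12 and Col13a1 in cluster 16, all of them fibroblastic groups. Col13a1 was nearly as high in cluster 22, which had endothelial and pericyte markers (159 CPM in Sod1KO GFP-). Col8a1 was highest in perineurial-like cells. The basement membrane chains that lead in these cells were even: Col4a1 was at 719 and 733 CPM and Col4a2 at 538 and 515. The summed mesenchymal markers were at 530 CPM in WT and 614 in Sod1KO, and their part was not tested. With a stricter filter on cells, 2 members instead of 6 were higher, and the log2 ratios of Col13a1 and Col8a1 were -0.0255 and -0.0651.

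In cluster 12, of 25 members, 5 were higher and 2 lower in Sod1KO, beside 5.4% of all genes. The higher ones were Col28a1 at 32.8 and 80.4 CPM in WT and Sod1KO (1.30), Col8a1 at 94.3 and 224 (1.25), Col27a1, Col16a1 and Col11a1. The lower ones were Col6a6, at 105 and 28.4 CPM (-1.88), and Col9a2, at 164 and 67.0 (-1.29). Cluster 12 had 78 cells in WT and 315 in Sod1KO, and its summed markers differed as well, with mesenchymal markers at 15070 and 8395 CPM, perineurial ones at 56.7 and 347 and tenocyte ones at 60.7 and 235. Their part was not tested. Under the stricter filter 2 members were higher.

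The tenocyte-like cells, with the largest collagen share, differed little (508 WT and 1061 Sod1KO cells). None of 29 members was 2-fold higher, and 1 was lower, beside 1.42% of all genes, with a median log2 ratio of -0.03. That 1 was Col22a1, at 12.2 and 3.07 CPM (-1.99), of which 68 of 188 WT UMIs lay in 1 cell and whose ratio turned to 0.70 under the stricter filter. Col2a1, at 70.3 and 103 CPM, and Col20a1, at 6.71 and 11.8, were the next furthest apart on the higher side. In cluster 16, where Col22a1 was even, 1 of 32 members was higher (Col23a1, 7.33 and 18.1 CPM, 1.30) and 1 lower (Col15a1, 22.7 and 8.51, -1.42, with 30 of 93 WT UMIs in 1 cell), beside 0.904% of all genes.

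The remaining GFP+ comparisons held few members past the threshold. In mesenchymal-like cells it was 1 of 25, Col20a1 at 6.66 and 15.2 CPM (1.19), beside 1.36% of all genes. No member passed there with free RNA subtracted or at the finer clustering, and Col20a1 was at 3.16 and 4.55 CPM in macrophage-like cells. In cluster 6 it was 2 of 19, Col8a1 at 14.4 and 46.8 CPM (1.7, with 39 of 117 Sod1KO UMIs in 1 cell) and Col14a1 at 212 and 469 (1.14), beside 1.13%. In cluster 5 it was 1 of 13, Col18a1 at 24.5 and 56.0 CPM, with 43 of 61 Sod1KO UMIs in 1 cell and a log2 ratio of -0.24 without the top cells, beside 0.971%. Endothelial-like cells had 0 of 10, beside 1.12%, with Col8a1 at 107 and 64.9 CPM and Col1a2 at 55.6 and 92.7 the furthest apart. The Col1a2 values lay below those of macrophage-like cells without their top cell (77.1 and 119.6 CPM), so they were at background, and the tenocyte markers were at 29.3 and 51.5 CPM, with 8 of 8 higher in Sod1KO. That count depended on the clusters, since at a finer resolution 13 members were at least 2-fold higher in the endothelial-like cells. The number of members compared and the share of all genes at that resolution are not given here. The 13 are therefore not read as a trait of collagen genes.

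In the GFP- fraction, mesenchymal-like cells had 8 of 26 members higher and 1 lower, but 13.7% of all genes were past 2-fold there. Col18a1 was at 36 and 89.7 CPM in WT and Sod1KO (1.32), Col14a1 at 238 and 564 (1.24), Col27a1 at 23.3 and 51.9 (1.16) and Col3a1 at 3764 and 7994 (1.09). Col20a1 was at 2.12 CPM, on 4 UMIs, and 10.2 (2.27), and Col11a1 was the lower one at 58.2 and 4.37 (-3.74). The WT class was of mixed make-up: 123 of its 185 cells lay in cluster 29 and 25 in cluster 36, and the summed endothelial markers were at 2191 CPM in WT and 116 in Sod1KO, smooth muscle ones at 2471 and 220 and tenocyte ones at 1388 and 263. Without these clusters, which left 37 WT cells, 2 of 25 members were higher and none lower, beside 6.97% of all genes: Col18a1 at 37.1 and 89.8 CPM (1.27) and Col20a1 at 4.29, on 3 UMIs, and 10.3 (1.26, -0.33 to 3.56).

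Vascular cells of the GFP- fraction were closer between genotypes. Pericyte-like cells had 0 of 13 members past the threshold, beside 2.19% of all genes, with Col5a3 at 235 and 129 CPM and Col4a4 at 76.4 and 42.0 the furthest apart. Endothelial-like cells had 1 of 17 higher (Col23a1, 2.27 and 6.62 CPM, 1.54) and 1 lower (Col4a4, 7.12 and 3.17, -1.17), beside 3.44%, and the count of lower ones was 0 under the stricter filter and at the finer clustering. Cluster 5 had 1 of 20 higher (Col25a1, 9.86 and 26.2 CPM, 1.41) and 1 lower (Col28a1, 29.2 and 14.5, -1.01), beside 2.59%. That lower count was 0 under the stricter filter, without doublet removal, at the finer clustering, with median-of-ratios scaling and without the top cells.

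Only 3 groups could be compared in both fractions, and each fraction has libraries of its own from the same pooled mice. In mesenchymal-like cells 17 of 25 members had the same sign in both, and 1, Col20a1, was past 2-fold in both, on 4 WT UMIs in the GFP- fraction and on a GFP+ call that was lost with free RNA subtracted and at the finer clustering, while over all genes 4402 of 8320 had the same sign and 39 were past in both. In endothelial-like cells it was 4 of 10 members and in cluster 5 it was 6 of 13, with none past in both, against 4894 of 7109 and 3244 of 4943 genes.

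Fixed lists of 30 genes that process or cross-link collagen and 12 collagen receptors were examined in the same way. In tSC-like cells 1 of 22 processing genes compared was higher, the cross-linking enzyme gene Loxl2 at 7.38 and 21.0 CPM in WT and Sod1KO (log2 ratio 1.51), and 1 was lower, Colgalt2, which adds galactose to collagen, at 43.1 and 18.0 (-1.26). Of 6 receptors 1 was lower, Cd36 at 41.9 and 7.70 CPM (-2.45), against 7.12% of all genes past 2-fold there. Within cluster 11 alone no processing gene passed: Colgalt2 was at 46.2 and 37.5 CPM (-0.30), and Loxl2, with 27 and 23 UMIs, was too low to compare. Cd36 was still lower there (-1.22). Endothelial-like cells of WT and Sod1KO GFP+ had 1831 and 1282 CPM of Cd36, and the endothelial markers were lower in Sod1KO in tSC-like cells and in cluster 11. Their part in the Cd36 ratios was not tested. In smooth muscle-like cells, where 1.68% of all genes passed, 1 of 24 processing genes was higher (Loxl2, 9.56 and 22 CPM, 1.20) and 1 of 9 receptors (the integrin chain Itga11, 3.11 and 7.02, 1.17). Most processing genes thus stayed within 2-fold in these cells.

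In cluster 7 the processing gene P3h2, a prolyl 3-hydroxylase, was at 34.4 and 128 CPM in WT and Sod1KO (1.90), 1 of 24 compared, and 2 of 7 receptors were higher: the integrin chain Itga1 at 62.7 and 132 (1.08) and Adgrg6, an adhesion receptor of Schwann cells that binds type IV collagen, at 55.6 and 115 (1.04), beside 5.96% of all genes. In cluster 12 the prolyl 4-hydroxylase chain gene P4ha2 was at 95.1 and 30.6 CPM (-1.64), 1 of 22, while among 5 receptors Itga1 was higher (45.5 and 115, 1.33) and Itga11 lower (44.7 and 16.1, -1.47), beside 5.4%. In cluster 16 Cd36 was lower (16.6 and 4.84 CPM, -1.78), 1 of 9 receptors, beside 0.904%. In GFP- mesenchymal-like cells 2 of 27 processing genes were higher and 3 lower, and 2 of 8 receptors were higher and 2 lower, beside 13.7% of all genes, with Cd36 at 831 and 16.4 CPM (-5.66) the furthest. The endothelial markers in that class were at 2191 and 116 CPM, and their part was not tested. Without clusters 29 and 36, 0 of 27 processing genes were higher and 4 lower, 0 of 8 receptors were higher and 1 lower, beside 6.97% of all genes, and Cd36 was at 57.1 and 13.8 CPM (-2.05). In the GFP- fraction 1 of 14 processing genes of pericyte-like cells (P3h2, 1.14), 1 of 8 receptors of cluster 5 (Itga2, 1.96) and 1 of 7 of endothelial-like cells (Mrc2, 1.04) were higher, beside 2.19%, 2.59% and 3.44% of all genes. No processing gene or receptor passed 2-fold in the other comparisons of the 15.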

How the data were processed

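The authors deposited raw UMI counts per gene and cell barcode for 4 libraries from droplet 3′ sequencing, 1 per genotype and sort, with all samples handled together as 1 batch per the labels. The submitters' processing notes name mm10 and Seurat 4.30, and the file headers Cell Ranger 7.1.0. The study's methods also name removal of free RNA and of doublets, and the sources used here do not say if the deposited matrices were made before it. The deposited counts were used as they are, and CPM is UMIs per 1000000 UMIs of the cells of a class in a library.

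Cells with at least 200 genes and under 10% mitochondrial UMIs were kept, and doublets were scored against simulated pairs and removed at 0.8% per 1000 barcodes. Clustering (Leiden, resolution 1, 30 principal components of 2000 variable genes, 20 neighbours) left out the collagen genes. A marker counted as present above 20 CPM and 2-fold over the other cells, and a name needed 3 markers, of which at least 1 among the top 10 genes where cells were shallow. Further limits on names were set after the clusters were seen. The collagen genes and the gene lists were chosen with earlier results of these data known.

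A genotype comparison used classes with 50 or more cells in both libraries and genes with 100 or more UMIs, with a threshold of 2-fold and no test. Poisson, Clopper-Pearson and conditional binomial 95% intervals cover counting error only. A count of 0 was given a floor of 3 UMIs. Genes named were the 5 highest collagens of each class, up to 5 past 2-fold in each direction and those past it in both sorts. Genes with over 50% of a library's UMIs after filters in 1 class, and up to 4 per list, were named too. Other genes were chosen after their values were seen. Methods were tested on simulated data. Coordinates and promoters came from RefSeq on GRCm38.p6. Alternatives were a stricter cell filter, no doublet removal, resolution 2, clustering with the collagen genes kept, a mean over cells, median-of-ratios scaling, totals without collagen genes, free-RNA subtraction, a minimum of 30 UMIs and clusters mostly of 1 library left out. The tools were leidenalg 0.10.2 with igraph 0.11.9 for clusters, scikit-learn 1.9.0 for principal components, scipy 1.17.1 for intervals, and Python 3.11.15, numpy 2.4.6, pandas 2.3.3 and matplotlib 3.10.9 for the rest.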

Additional observations from a re-analysis of the deposited data

Results flagged for a closer look

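In 8 pairs of a member and a class, over 7 genes, the Sod1KO over WT ratio had opposite signs in the GFP+ and GFP- fractions, with both counting intervals clear of 0. Each fraction had 1 library per genotype, so the difference between fractions was not tested, and no group was large enough to look for a sample far from the others. In endothelial-like cells the log2 ratio was 0.37 in GFP+ and -0.12 in GFP- for Col4a1, a difference of 0.492. For Col4a2 it was 0.27 and -0.16 (0.435), and for the type V chain Col5a2 0.54 and -0.52 (1.05). In mesenchymal-like cells Col3a1 was at -0.16 and 1.09 (-1.24), Col5a1 at -0.15 and 0.88 (-1.03) and Col4a2 at 0.31 and -0.29 (0.595). The WT GFP- mesenchymal-like cells lay mostly in cluster 29 (123 of 185 cells), and the part of this in these values was not tested. In cluster 5 Col1a1 was at 0.68 and -0.17 (0.841) and Col15a1 at 0.24 and -0.18 (0.419). Both chains of the common type IV network thus differed in sign between fractions of the endothelial-like cells, by amounts under the 2-fold threshold.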

How the results depend on the processing

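Of 615 log2 ratios of named members under alternatives 520 stayed inside their main counting interval, 89 left it with the same sign and 6 changed sign. Of 292 collagen shares 171 left their interval, which is narrow at these counts. Of 159 counts of members higher and 159 of members lower, 27 and 27 were over 1.5 times from their main value. Counts under alternatives, here and above, have no share of all genes beside them and are not read as a trait of collagen genes. No paired analysis was possible because each group had 1 library, and no replicate could be left out.

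Leaving out clusters held over 80% by 1 library, the tSC-like counts went from 10 higher and 2 lower to 1 and 1, and Col8a1 changed sign to -0.44. With the stricter cell filter the higher counts became 2 in cluster 12 (from 5), 2 in smooth muscle-like cells (from 6), 0 in mSC-like cells (from 2) and 2 in GFP- endothelial-like cells (from 1), the lower counts became 0 in tenocyte-like cells, cluster 16, GFP- cluster 5 and GFP- endothelial-like cells (from 1 each), and in smooth muscle-like cells Col13a1 and Col8a1 changed sign to -0.0255 and -0.0651 and in tenocyte-like cells Col22a1 to 0.70. Without doublet removal the higher counts were 0 in GFP+ cluster 5 (from 1), 2 in GFP- cluster 5 and 2 in GFP- endothelial-like cells (from 1 each), and the lower counts 0 in cluster 16, GFP- cluster 5 and GFP- mesenchymal-like cells (from 1 each). At resolution 2 the higher counts were 13 in GFP+ endothelial-like cells (from 0), 3 in the GFP- ones (from 1), 2 in GFP- mesenchymal-like cells (from 8) and 0 in GFP+ mesenchymal-like cells and cluster 5 (from 1 each), the lower counts 0 in cluster 16, GFP- cluster 5, GFP- endothelial-like and GFP- mesenchymal-like cells (from 1 each), and Col8a1 in cluster 6 changed sign to -0.20. With the mean over cells the higher counts were 3 in cluster 12, 0 in GFP+ cluster 5, 2 in GFP- cluster 5 and 13 in GFP- mesenchymal-like cells, and the lower counts 2 in cluster 16, 4 in GFP- endothelial-like cells, 2 in GFP- mesenchymal-like cells and 1 in tSC-like cells. With 5% free RNA subtracted the higher counts were 0 in GFP+ cluster 5 and GFP+ mesenchymal-like cells and 1 in tenocyte-like cells (from 0), and the lower count 0 in cluster 16. With a minimum of 30 UMIs the higher counts were 11 in smooth muscle-like cells, 4 in GFP- cluster 5, 2 in GFP- endothelial-like cells and 1 in pericyte-like cells (from 0), and the lower counts 2 in cluster 16, GFP- mesenchymal-like and GFP+ endothelial-like cells and 1 in GFP+ cluster 5, mSC-like, GFP+ mesenchymal-like and smooth muscle-like cells. With median-of-ratios scaling the lower count of GFP- cluster 5 was 0. An alternative chosen after seeing the data left out the cell of most UMIs in each library: the higher counts were then 0 in GFP+ cluster 5, 1 in cluster 6 (from 2) and 2 in GFP- endothelial-like cells, the lower counts 0 in cluster 16 and GFP- cluster 5, and Col18a1 in GFP+ cluster 5 changed sign to -0.24. Cluster 11 alone and the GFP- mesenchymal-like cells without clusters 29 and 36 were also chosen after seeing the data. Some alternatives left too few cells and gave no value: resolution 2 in cluster 12, clusters mostly of 1 library in cluster 12 and GFP- mesenchymal-like cells, and the stricter filter in GFP+ cluster 5, GFP- mesenchymal-like and pericyte-like cells. The cause of these shifts was not tested. Members under 100 UMIs in a comparison could not be read at this depth.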

Other observations

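Perineurial-like cells had too few cells in the WT libraries (42 and 6) for a comparison of genotypes, but the Sod1KO libraries held 91 in the GFP+ fraction and 112 in the GFP- fraction, and their collagens differed by fraction. Col6a5, a chain of type VI collagen, was at 4.61 CPM (1.69 to 10.0) in Sod1KO GFP+ and 130 (116 to 146) in Sod1KO GFP-, and at 66.3 (43.7 to 96.4) in WT GFP+. Col8a1 was at 191 CPM (168 to 216) in Sod1KO GFP+ and 528 (499 to 558) in Sod1KO GFP-. Col18a1 went the other way, at 351 CPM (320 to 385) in Sod1KO GFP+ and 105 (92.0 to 119) in Sod1KO GFP-, and so did the transmembrane Col23a1, at 161 CPM (140 to 185) and 36.7 (29.4 to 45.4). Each value rests on 1 library, and the sort and the cells it selects cannot be told apart.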
